A study of Mus musculus with 12 samples.

Results

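Transcripts of voltage-gated sodium channel subunits were measured in mouse cardiac ventricles from a study of CRISPR activation aimed at Mef2d. The members are the 7 genes Scn10a, Scn4a, Scn3a, Scn7a, Scn2b, Scn3b and Scn4b, taken by symbol from a table of 24390 genes, and all 7 were found. The ventricles came from 8-week-old C57BL/6 mice, and 12 RNA libraries were made, 3 per group for 4 groups. WT_saline hearts were wild-type and received saline. WT_AAV hearts were wild-type and received AAV9TRISPR, an AAV9 vector that the labels name together with Mef2d. TG_saline hearts carried the transgene Myh6-dCas9VPR and received saline, and TG_AAV hearts carried the same transgene and received the vector. The transgene encodes a nuclease-dead Cas9 joined to transcription activating domains, under the promoter of Myh6, which is active in heart muscle cells, so any activator is made mainly in these cells. TG_AAV holds both components, and WT_saline, WT_AAV and TG_saline serve as the 3 control groups. TG_AAV and TG_saline differ by the whole vector, and a vector with other guides is not among the groups. Nothing in the labels states that each sample is a separate animal, so a p-value here reflects the spread between samples, which may be technical.

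A voltage-gated sodium channel has a large pore-forming alpha subunit, which opens when the membrane is depolarised, lets sodium ions in and then inactivates within milliseconds. In heart muscle this inward current gives the rapid upstroke of the action potential and carries conduction from cell to cell. The smaller beta subunits cross the membrane at a single point, carry an immunoglobulin-like domain outside the cell, and tune the gating and surface level of the alpha subunit as well as cell adhesion. Among the members, Scn4a encodes the alpha subunit of skeletal muscle, Scn10a a tetrodotoxin-resistant alpha subunit known from sensory neurons, Scn3a an alpha subunit of the developing nervous system, and Scn7a an atypical alpha subunit known as Nax, which is implicated in sodium sensing and not gated like the others. Scn2b and Scn4b encode beta subunits that are held to the alpha subunit by a disulphide bond, and Scn3b a beta subunit that binds without one.

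The genes lie on 3 chromosomes. Scn10a, Scn2b, Scn3b and Scn4b are on chromosome 9, Scn3a and Scn7a on chromosome 2, and Scn4a on chromosome 11. Scn2b and Scn4b are next to each other among the protein-coding genes of chromosome 9 in RefSeq (GRCm38.p6), on the same strand. The promoters of these neighbours, and of the 2 genes that were lower with full activation, are shown so that the opposite outcomes below can be read beside their start regions. Each is 300 bases from RefSeq on GRCm38.p6, 250 before and 50 after the annotated start, read 5′ to 3′ along the gene, and capitals mark stretches that match the consensus of MEF2 proteins with at most 1 mismatch.

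Scn4b, chr9:45138374-45138673, plus strand: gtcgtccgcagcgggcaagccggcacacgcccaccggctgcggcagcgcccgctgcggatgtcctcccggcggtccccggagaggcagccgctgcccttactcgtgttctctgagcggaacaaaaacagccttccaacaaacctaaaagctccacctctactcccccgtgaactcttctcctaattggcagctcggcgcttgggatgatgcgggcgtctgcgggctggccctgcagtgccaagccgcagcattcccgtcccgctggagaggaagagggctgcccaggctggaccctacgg

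Scn2b, chr9:45117626-45117925, plus strand: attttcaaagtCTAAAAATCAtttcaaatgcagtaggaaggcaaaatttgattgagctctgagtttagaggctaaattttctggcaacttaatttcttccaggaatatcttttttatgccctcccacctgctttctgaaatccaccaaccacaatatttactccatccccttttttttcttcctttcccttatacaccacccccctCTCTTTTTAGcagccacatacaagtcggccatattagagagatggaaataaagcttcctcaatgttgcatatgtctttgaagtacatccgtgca

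Scn4a, chr11:106349341-106349640, minus strand: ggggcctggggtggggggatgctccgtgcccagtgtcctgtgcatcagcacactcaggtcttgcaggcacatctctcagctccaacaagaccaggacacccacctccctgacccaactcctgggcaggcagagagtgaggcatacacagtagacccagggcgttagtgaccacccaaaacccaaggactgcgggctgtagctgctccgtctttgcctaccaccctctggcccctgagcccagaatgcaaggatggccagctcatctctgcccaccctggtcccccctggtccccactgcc

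Scn10a, chr9:119718983-119719282, minus strand: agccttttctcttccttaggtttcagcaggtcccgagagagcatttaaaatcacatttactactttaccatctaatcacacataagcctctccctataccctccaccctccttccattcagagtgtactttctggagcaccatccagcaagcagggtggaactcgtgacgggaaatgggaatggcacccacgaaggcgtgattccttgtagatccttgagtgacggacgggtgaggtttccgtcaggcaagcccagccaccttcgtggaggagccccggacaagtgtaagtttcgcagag

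Promoter sequences were matched for 5 of the 7 members, which also include Scn7a. All motifs were searched on both strands. It had 0 exact matches in each of the 5, and 3.19% of the 32851 mouse promoters in the same table held one. With at most 1 mismatch, Scn2b had 2 matches, at positions -239 and -44 from the annotated start, against 26.9% of all promoters with at least 1, and the other 4 had 0. The E-box letters CANNTG occurred 3 times in Scn2b, 2 times in Scn7a, once in Scn10a, and not in Scn4a or Scn4b, against 72.3% of all promoters. The Scn4b promoter was rich in G and C (66.3%), as was that of Scn4a (63.0%), while that of Scn2b held 38.3%, with a median of 52.7% over all promoters. These matches describe letters in a short window.

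As a check of the labels, Mef2d stood at 1897 to 2231 normalized counts in TG_AAV and at 833 to 1178 in the 9 control libraries. A normalized count is the number of reads on a gene after scaling by the size factor of its library. The 12 libraries held 10233281 to 14911986 reads assigned to genes. All 7 heart muscle cell markers were present in every group, and of these 0 rose and 3 fell in TG_AAV against the controls (Ryr2 -0.76, Tnni3 -0.43 and Tnnt2 -0.40 on the log2 scale). Their sum was 1594300 to 1714900 normalized counts in TG_AAV and 1715900 to 2176800 in the controls. Among 6 markers of endothelium, Vwf (-0.49), Cdh5 (-0.43) and Esam (-0.32) fell and 0 rose, and the sum was 8449 to 9789 in TG_AAV and 10078 to 12832 in the controls. Over all tested genes 12.0% rose and 9.69% fell in TG_AAV against the controls (limma adjusted p under 0.05). The part of these cell populations in the results on the channel genes was not tested. The atrial transcript Myl7 exceeded 1000 normalized counts in WT_AAV 1, WT_AAV 3 and TG_AAV 1 and ran from 1.15 to 728 elsewhere. Results are also given without those 3 libraries, an omission that leaves WT_AAV 2 alone in its group. On the first principal component of the 6 wild-type libraries, with 31.8% of their variance, WT_saline 3 (-21.3) and WT_AAV 3 (-29.8) lay apart from the other 4 (3.15 to 26.2). An omission of WT_saline 3, WT_AAV 2 and WT_AAV 3 together was also run, a choice taken from an earlier account of these data, although WT_AAV 2 (6.69) did not lie apart on this component. Xist, which is high in female cells, stood at 7415 to 16830 in 5 libraries and at 2.99 to 16.6 in the other 7, and both levels occurred in every group.

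The first comparison set TG_AAV against the average of all 3 control groups. Scn4b rose to 3.995 times its control mean, Scn4a fell to 0.348 times and Scn10a to 0.133 times, while Scn3a, Scn7a, Scn2b and Scn3b did not pass the test. So 1 of 7 members rose and 2 fell, against 21.7% of 13030 tested genes called in either direction, 12.0% higher and 9.69% lower (limma, two-sided, adjusted p under 0.05). All 7 members passed the filter of a mean normalized count of 10 over the 12 libraries. Scn10a had a TG_AAV mean below that level. The median log2 change was 0.09 over the 7 members and -0.00 over all tested genes. In 3 members, Scn4b, Scn4a and Scn10a, no TG_AAV value lay within the range of the control values, against 17.5% of the tested genes.

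**Figure D1:**
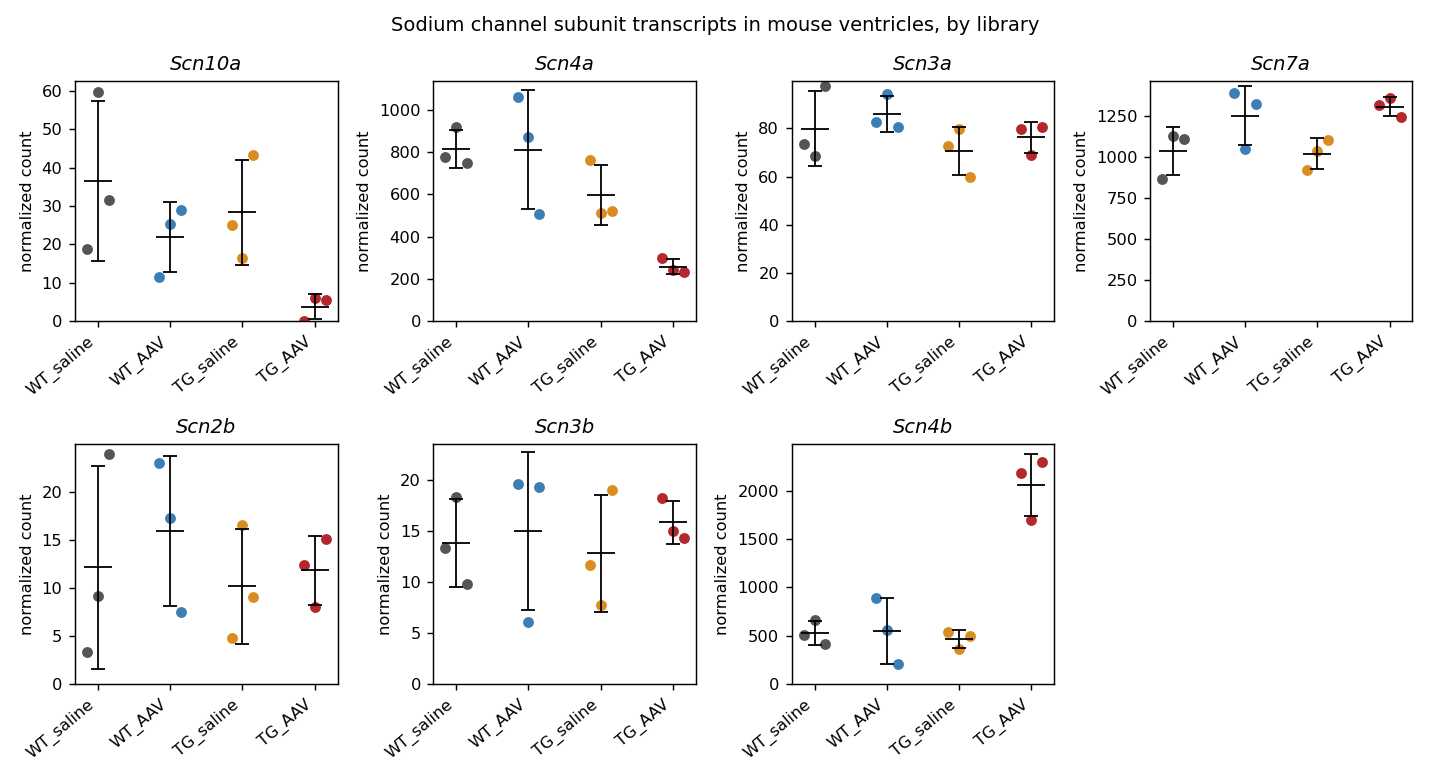
Normalized count of each of the 7 sodium channel subunit genes (vertical axes, linear from 0) in each library of the 4 groups (horizontal axes). Coloured points are libraries in the order of their replicate numbers, and black bars are the mean ± SD of 3 libraries. The 3 TG_AAV points lie above all control points for Scn4b and below them for Scn4a and Scn10a.

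The plot of normalized counts by library shows these 3 separations and the overlap of the groups for the other 4 genes.

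Among the alpha subunits, Scn4a stood at 775, 918 and 749 normalized counts in WT_saline. In WT_AAV it stood at 1058, 869 and 507, and in TG_saline at 759.7, 510.4 and 519.6. In TG_AAV it stood at 298, 242 and 232, below every control library. Its mean was 258 ± 35.6 in TG_AAV (SD, n = 3) against 741 ± 196 over the controls (SD, n = 9), a ratio of 0.348. The two-sided exact permutation test gave p = 0.00909, which is the lowest value possible for 3 and 9 libraries. Scn4a fell by 1.48 on the log2 scale of normalized count + 1 (SE 0.19, limma adjusted p = 0.000130). The log2 change was -1.65 without the 3 libraries rich in Myl7 and -1.65 without WT_saline 3, WT_AAV 2 and WT_AAV 3. In ventricle tissue, fewer cells that make a transcript and less transcript per cell cannot be told apart.

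Because Scn4a is known from skeletal muscle, the 11 skeletal muscle markers were summed in each library. The sum was 1179, 35.5 and 1377 normalized counts in WT_saline, 1237, 42.6 and 34.3 in WT_AAV, 25.1, 1139 and 28.9 in TG_saline, and 1005, 1082 and 42.2 in TG_AAV. It was high and low within every group, and its part in the Scn4a result was not tested. Of the 11 markers 3 were tested, with limma adjusted p from 0.347 to 0.766. Their log2 changes were 1.47 for Myh2 (SE 2.62), 0.70 for Myh1 (SE 1.42) and -0.42 for Tnni2 (SE 0.30), so Tnni2 varied least between libraries. Myog was at 0 in WT_AAV, TG_saline and TG_AAV.

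Scn10a was a gene of few reads. WT_saline libraries held 17, 52 and 29 reads, WT_AAV libraries 10, 25 and 27, and TG_saline libraries 26, 15 and 48. In TG_AAV it held 0, 6 and 7 reads, fewer than any control library. The TG_AAV libraries totalled 10966788 to 14911986 reads and the control libraries 10233281 to 11924301. A count of 0 in TG_AAV 1 allows up to 2.19 normalized counts (3 reads). Its mean was 3.85 ± 3.34 normalized counts in TG_AAV (SD, n = 3) and 29.0 ± 14.7 in the controls (SD, n = 9), and the two-sided exact permutation test again gave p = 0.00909. Scaled for depth, the ratio of 13 reads in TG_AAV to 249 in the controls was 0.123, with an exact 95% confidence interval of 0.0644 to 0.214 that covers counting error alone. In log2 terms Scn10a fell by 2.92 (SE 0.56, limma adjusted p = 0.00262), and its change was -2.0 without TG_AAV 1, the library with 0 reads (adjusted p = 0.0124). Of the 50-base stretches of its transcripts, 1.66% also occur in transcripts of other genes, so the origin of some of its few reads is uncertain.

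The markers of cells in which Scn10a is known moved in both directions. The 12 markers of the conduction system, the fast-conducting muscle of the heart, summed to 1051 to 1372 normalized counts in TG_AAV, below the 1498 to 2788 of the control libraries. Of 10 tested, 0 rose and 2 fell against the controls, the T-type calcium channel Cacna1g (-1.60) and the pacemaker channel Hcn4 (-0.66). Against TG_saline 0 rose and 1 fell, Cacna1g (-1.35), beside 3.69% higher and 2.4% lower over all genes. Hcn4 had a change of 0.0019 there. Against WT_AAV 0 rose and 3 fell, beside 10.6% higher and 8.17% lower. Isl1 was at 0 in WT_saline and TG_saline. The 10 markers of autonomic neurons summed to 252 to 273 in TG_AAV, above the 115 to 186 of the control libraries. Of 3 tested against the controls, Uchl1 rose (1.52) and Dbh fell (-2.13), and Chrna3 was at 0 in every group. Over all tested genes 12.0% rose and 9.69% fell in TG_AAV against the controls. The part of either cell population in the Scn10a result was not tested.

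Scn3a overlapped between TG_AAV and the controls. It stood at 68.7 to 97.7 normalized counts in WT_saline, 80.4 to 94.4 in WT_AAV, 59.6 to 79.5 in TG_saline and 68.8 to 80.4 in TG_AAV. Its log2 change against the controls was -0.04, with a 95% interval of -0.33 to 0.26 (limma adjusted p = 0.883). Of its 50-base stretches 6.49% also occur in other genes, the highest share among the members, and a transcript on the opposite strand, Gm13595, overlaps it.

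Scn7a stood at 868, 1128 and 1110.3 normalized counts in WT_saline, 1390.2, 1046 and 1320.3 in WT_AAV, 920.1, 1037 and 1105 in TG_saline, and 1315, 1361 and 1244 in TG_AAV. The TG_AAV values lay above all of TG_saline and WT_saline and within the range of WT_AAV. Its log2 change against the controls was 0.26 (95% interval 0.04 to 0.48, limma adjusted p = 0.0858), which did not pass. Fibroblast markers summed to 39213 to 41650 normalized counts in TG_AAV and to 26219 to 39022 in the controls, with 36268, 27699 and 39022 in WT_AAV. Of these 8 markers 5 rose and 0 fell against the mean of the controls, beside 12.0% higher and 9.69% lower over all tested genes. Against TG_saline 3 rose and 0 fell, beside 3.69% higher and 2.4% lower. Against WT_AAV 1 rose and 0 fell, beside 10.6% higher and 8.17% lower. Schwann cell markers summed to 628 to 660 in TG_AAV and to 516 to 791 in the controls. Over the 7 tested, limma adjusted p against the controls ran from 0.113 to 0.935. Their part in the level of Scn7a was not tested.

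Among the beta subunits Scn4b, whose intracellular tail is linked to resurgent sodium current in neurons, rose, and the other 2 did not pass. Scn4b stood at 509.7, 662 and 409 normalized counts in WT_saline. In WT_AAV it stood at 892, 555 and 210.04, and in TG_saline at 540.3, 360.2 and 494. In TG_AAV it stood at 2178, 1695 and 2297, so that the lowest of these was well above the highest control library, WT_AAV 1. Its mean was 2056.5 ± 319 in TG_AAV (SD, n = 3) against 515 ± 192 over the controls (SD, n = 9), a ratio of 3.995, with p = 0.00909 in the same exact permutation test. In log2 terms Scn4b rose by 2.08 (SE 0.31, 95% interval 1.41 to 2.75, limma adjusted p = 0.000490). The log2 change was 1.95 without the libraries rich in Myl7 and 1.72 without WT_saline 3, WT_AAV 2 and WT_AAV 3. WT_AAV 1 and WT_AAV 3, which are both rich in Myl7, held the highest and the lowest Scn4b of the controls.

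The neighbour Scn2b had few reads. It stood at 3.33, 9.16 and 23.9 normalized counts in WT_saline, 23.0, 17.2 and 7.50 in WT_AAV, 4.83, 16.6 and 9.04 in TG_saline, and 12.4, 7.97 and 15.1 in TG_AAV. The groups overlapped, and the log2 change of 0.09 had a 95% interval of -0.99 to 1.17 (limma adjusted p = 0.924). The upper end of that interval lies below the lower end of the interval of Scn4b. On the other side of Scn4b lies Tmprss4, which had a mean of 0 normalized counts in WT_saline, WT_AAV and TG_AAV and 0.322 in TG_saline. Scn3b stood at 9.77 to 18.3 normalized counts in WT_saline, 6.09 to 19.5 in WT_AAV, 7.73 to 19.0 in TG_saline and 14.3 to 18.2 in TG_AAV. Its log2 change was 0.27 with a 95% interval of -0.51 to 1.05 (limma adjusted p = 0.638). Both genes overlap a transcript of the opposite strand (Gm10684 and Gm47266), and smaller changes than these intervals were not detectable at this depth.

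Levels of different genes were compared per kb of exon, with the union of exons of GENCODE M21 as the length. In WT_saline Scn7a stood at 141 ± 19.8 normalized counts per kb (SD, n = 3), Scn4a at 116 ± 13.0 and Scn4b at 106 ± 25.5, and these 3 neighbours in the order overlapped in their libraries. Scn3a followed at 6.41 ± 1.25, Scn10a at 4.60 ± 2.61, Scn2b at 2.60 ± 2.27 and Scn3b at 2.53 ± 0.787, and each of these 4 overlapped with the next in the order. With the longest transcript as the length Scn2b and Scn3b changed places. In TG_AAV the order changed to Scn4b at 413 ± 64.0, Scn7a at 178 ± 8.01 and Scn4a at 36.6 ± 5.06, with no overlap between these 3. Scn3a stood at 6.12 ± 0.519 per kb there, Scn3b at 2.90 ± 0.385, Scn2b at 2.54 ± 0.775 and Scn10a at 0.483 ± 0.419. Thus Scn4b moved from the third place in WT_saline to the first in TG_AAV, and Scn10a from the fifth to the last. In the other controls Scn4b was at rank 3 in WT_AAV and rank 2 in TG_saline, and Scn10a at rank 6 and rank 5. With the longest transcript as the length Scn10a was at rank 7, the last, in WT_AAV as well.

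**Figure D2:**
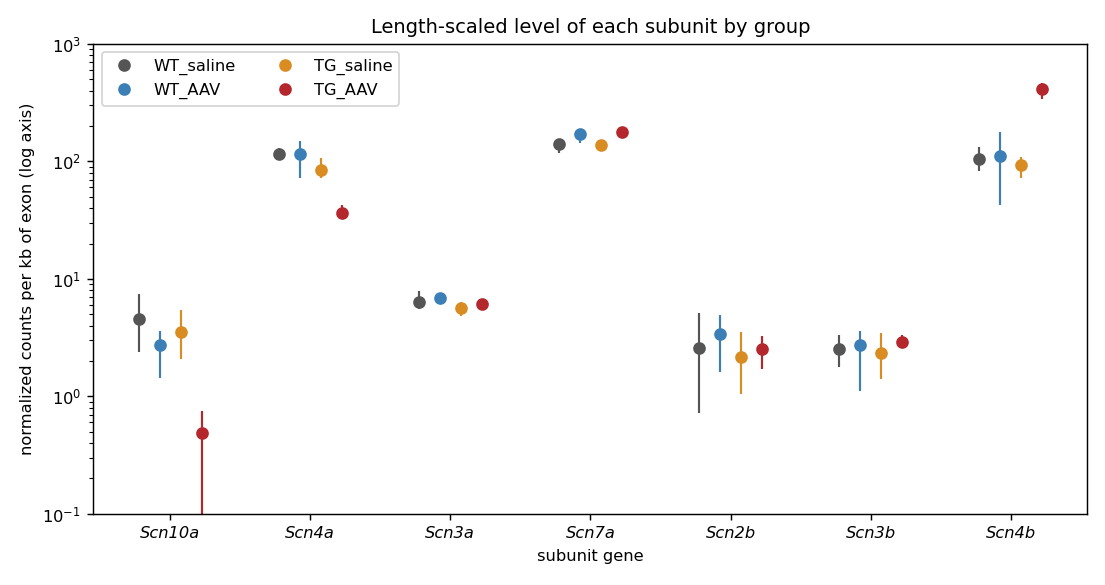
Normalized counts per kb of exon (vertical axis, log scale) for each subunit gene (horizontal axis) in the 4 groups. Points are group means and lines run from the lowest to the highest of 3 libraries, with the 0 of Scn10a in TG_AAV drawn at the lower edge. Scn4b is the highest of the 7 in TG_AAV, at 413 per kb, and the third in WT_saline, at 106.

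The plot of length-scaled levels shows 3 abundant members and 4 scarce ones, a division that held in every group.

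The pair of members that moved in opposite directions varied together among the controls. WT_AAV 1 had the highest value of both Scn4a (1058) and Scn4b (892), and WT_AAV 3 the lowest of both (507 and 210.04). The number of Scn4b counts per Scn4a count was 0.546 to 0.721 in WT_saline, 0.414 to 0.843 in WT_AAV and 0.706 to 0.951 in TG_saline. In TG_AAV it was 7.30, 7.0 and 9.89. Per kb of exon the same ratio went from 0.586 to 1.34 over the control libraries to 9.89 to 14.0 in TG_AAV. No test is given for this ratio, since the pair was chosen after the values were seen.

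**Figure D3:**
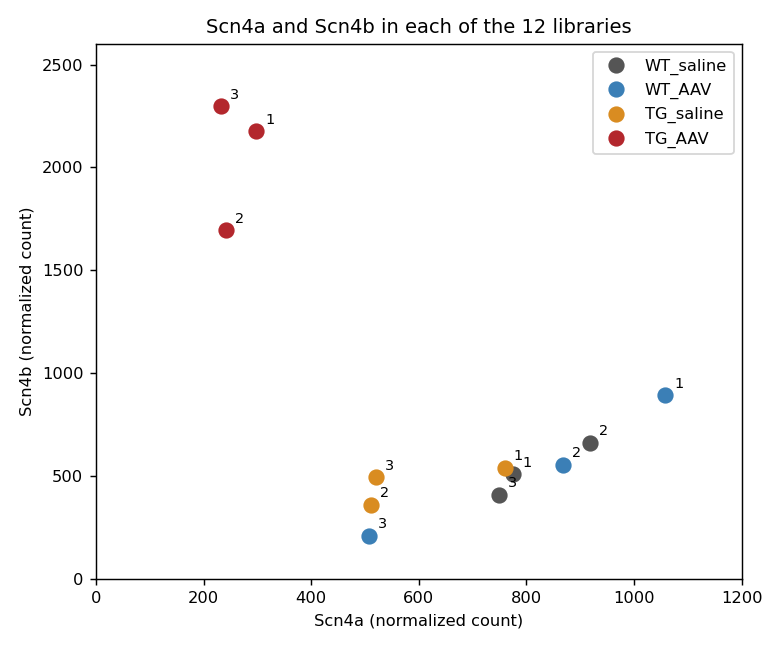
Normalized count of Scn4a (horizontal axis) against that of Scn4b (vertical axis) in each of the 12 libraries, coloured by group and numbered by replicate. The 9 control libraries lie along a rising band from WT_AAV 3 to WT_AAV 1, and the 3 TG_AAV libraries lie apart at 232 to 298 for Scn4a and 1695 to 2297 for Scn4b.

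The scatter of Scn4a against Scn4b shows the band of control libraries, including those rich in Myl7 at both of its ends.

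Against TG_saline, which already holds the activator, the same 3 members passed. Here 1 of 7 rose and 2 fell, against 6.09% of all tested genes called in either direction, 3.69% higher and 2.4% lower. In log2 terms Scn4b rose by 2.15 (SE 0.38, limma adjusted p = 0.00493) and Scn4a fell by 1.19 (SE 0.23, adjusted p = 0.00752). Scn10a fell by 2.93 (SE 0.68, adjusted p = 0.0226), and this did not pass when the fit omitted TG_saline 1 (log2 change -2.96, adjusted p = 0.0673), TG_saline 3 (-2.58, 0.0954) or TG_AAV 1 (-2.01, 0.05955) or the libraries rich in Myl7 (-2.01, 0.0524). Scn7a had a log2 change of 0.36 (adjusted p = 0.110), which passed without WT_saline 3, WT_AAV 2 and WT_AAV 3 (adjusted p = 0.0393) and in a fit of these 2 groups alone (0.0159). In that comparison 3 against 3 libraries cannot give an exact permutation p below 0.1, and Scn4b, Scn4a, Scn10a and Scn7a reached that value, with groups that did not overlap, as did 33.8% of tested genes.

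Against WT_AAV, which received the same vector without the activator, 1 of 7 members rose and 2 fell, against 18.8% of tested genes called, 10.6% higher and 8.17% lower. Scn4b rose by 2.11 (SE 0.38, limma adjusted p = 0.00222) and Scn4a fell by 1.59 (SE 0.23, adjusted p = 0.000473). The Scn4b change was 1.19 without WT_saline 3, WT_AAV 2 and WT_AAV 3. In that fit WT_AAV 1 is the remaining library of its group and is assumed to vary like the others. Scn10a fell by 2.58 (SE 0.68, adjusted p = 0.0192). This call was lost without WT_AAV 2 (log2 change -2.43, adjusted p = 0.0638), WT_AAV 3 (-2.34, 0.0621) or TG_AAV 1 (-1.66, 0.0586). The Scn10a change was -1.96 without the libraries rich in Myl7, a fit that leaves WT_AAV 2 alone in its group. It was -1.80 without WT_saline 3, WT_AAV 2 and WT_AAV 3, which leaves WT_AAV 1 alone. In Scn3a the 3 TG_AAV values lay below those of WT_AAV, with a log2 change of -0.17 that did not pass (adjusted p = 0.509). Non-overlap held for 4 of 7 members, Scn4b, Scn4a, Scn10a and Scn3a, and for 38.0% of tested genes. The comparisons of TG_AAV with the mean of the controls, with TG_saline and with WT_AAV share the TG_AAV libraries, and are not independent.

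Each component was also tested alone in the remaining groups. For the vector, WT_AAV against WT_saline, limma called 0 of the 7 members, with 1 at an unadjusted p under 0.05, and edgeR and DESeq2 called 0 each. Over all genes limma called 0.0% (514 of 13030 at an unadjusted p under 0.05, 0 called by edgeR and 11 by DESeq2). That 1 member was Scn7a, with a log2 change of 0.27 (95% interval 0.01 to 0.54, limma adjusted p = 0.992). For Scn4b the change was -0.14 (95% interval -0.96 to 0.69) and for Scn4a it was -0.06 (-0.55 to 0.43). The interval of Scn10a, -2.14 to 0.81, was the widest. For the transgene, TG_saline against WT_saline, limma called 0 of 7 with 0 at an unadjusted p under 0.05, and edgeR and DESeq2 called 0 each, against 0.0998% of genes called by limma. Over all 13030 genes, 1462 had an unadjusted p under 0.05, edgeR called 36 and DESeq2 214. Scn4a had the change farthest from 0, -0.47 (95% interval -0.96 to 0.02, adjusted p = 0.475), and its mean was 597 ± 141 in TG_saline and 814 ± 91.2 in WT_saline. Scn4b stood at -0.17 (95% interval -0.995 to 0.649).

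The interaction asks whether the vector acts differently in transgenic and in wild-type hearts. Limma called 0 of 7 members, 3 of them with an unadjusted p under 0.05, against 0.852% of genes called, while edgeR called 0 and DESeq2 1. Over all 13030 genes, 1522 had an unadjusted p under 0.05, edgeR called 104 and DESeq2 275. The estimate was 2.29 on the log2 scale for Scn4b (95% interval 1.12 to 3.45, limma adjusted p = 0.0750), -1.13 for Scn4a (-1.82 to -0.43, adjusted p = 0.153) and -2.27 for Scn10a (-4.36 to -0.18, adjusted p = 0.379). The member called by DESeq2 was Scn4a (adjusted p = 0.0130). Scn4b passed with limma without WT_AAV 1 (2.75, adjusted p = 0.0157), without WT_AAV 3 (1.71, 0.0282) and with a term for Xist (2.41, 0.0423). Scn4a passed with limma without WT_AAV 3 (-1.43, adjusted p = 0.0143). Without WT_saline 3, WT_AAV 2 and WT_AAV 3 the estimates were 1.53 for Scn4b and -1.52 for Scn4a. That fit leaves WT_AAV 1 alone in its group, so the spread within this group cannot be seen.

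**Figure D4:**
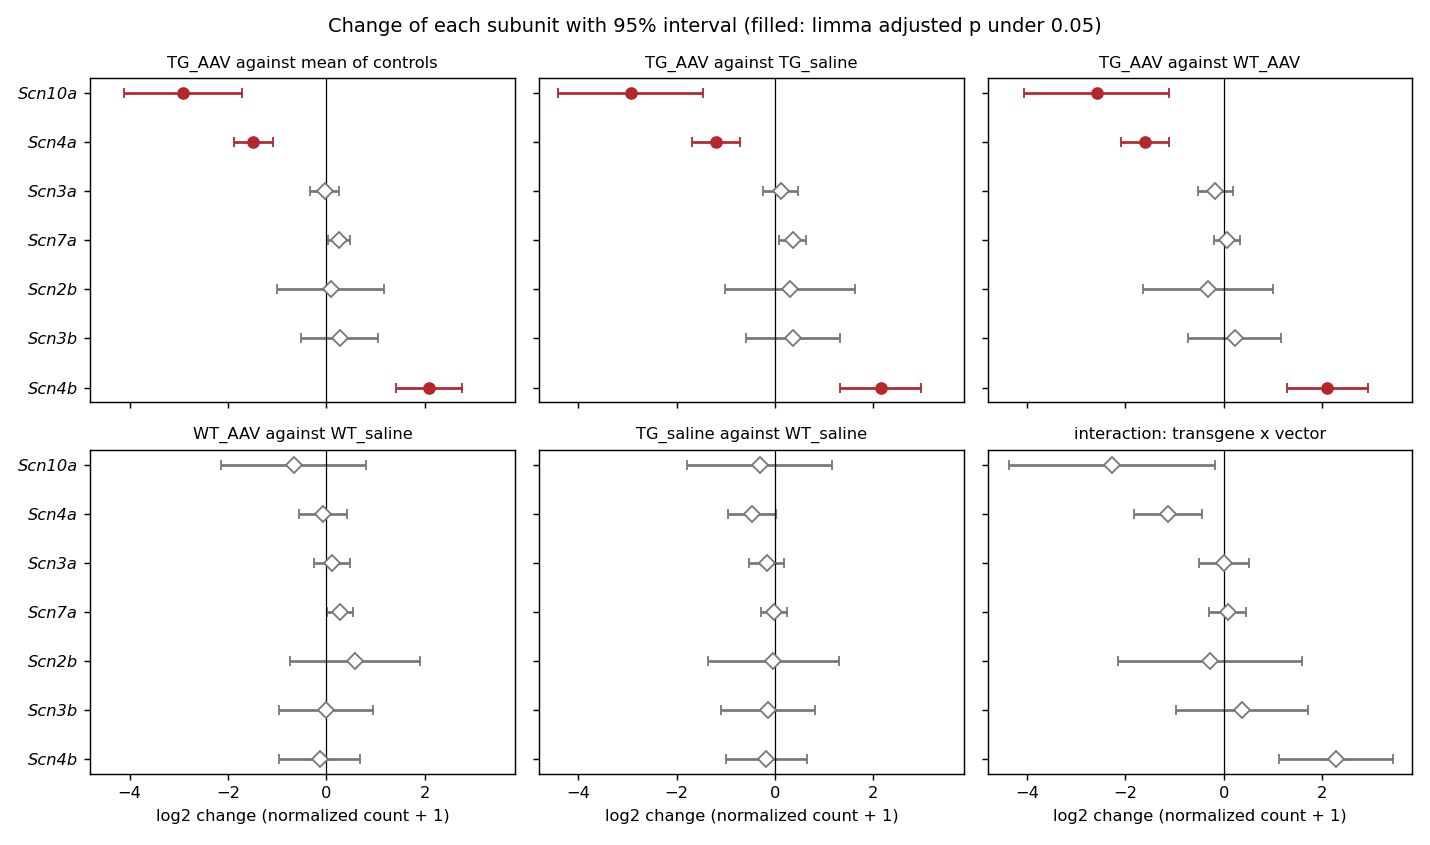
Log2 change of each member (horizontal axes, on normalized count + 1) in 6 comparisons, with its 95% interval. Filled red circles passed a limma adjusted p of 0.05 and open grey diamonds did not. Scn10a, Scn4a and Scn4b are filled in the 3 comparisons that hold TG_AAV against other groups and open in the other 3.

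The plot of changes by comparison shows intervals that were widest for Scn10a and Scn2b and narrowest for Scn7a.

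Other genes of sodium channel function were taken from lists. Of 12 further sodium channel genes 4 were tested, of which 2 rose and 1 fell in TG_AAV against the controls, with a median log2 change of 0.65 against -0.00 over all genes, of which 12.0% were called higher and 9.69% lower. The summed level of the list was 4663 to 5102 normalized counts in TG_AAV and 5503 to 9947 in the controls. Against TG_saline 0 of the 4 rose and 1 fell, beside 3.69% higher and 2.4% lower over all genes. Against WT_AAV 1 rose and 1 fell, beside 10.6% higher and 8.17% lower. Nalcn, the pore of the sodium leak channel, rose by 1.12 (SE 0.26, limma adjusted p = 0.00839), and its changes against TG_saline (1.07, adjusted p = 0.0667) and WT_AAV (0.82, adjusted p = 0.0905) did not pass. Scn2a1, an alpha subunit of neurons, had a change of 0.32 against the controls (limma adjusted p = 0.494). Of 22 partners of the cardiac sodium channel, all tested, 2 rose and 5 fell, against 12.0% higher and 9.69% lower over all genes. Their median log2 change was -0.05 against -0.00 over all genes. The calmodulin gene Calm3 (0.57) and the 14-3-3 gene Ywhah (0.32) rose. The FGF homologous factor Fgf13 (-0.54), which binds the tail of sodium channels, the gap junction protein Gja1 (-0.85), the desmosomal protein Pkp2 (-0.34) and the trafficking factor Rangrf (-0.57) were the first 4 that fell, in order of p, with limma adjusted p from 0.000237 to 0.0178.  Against TG_saline 0 partners rose and 1 fell, beside 3.69% higher and 2.4% lower over all genes.

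The genes whose pattern over the 12 libraries was nearest to each member were found by the mean absolute difference of centred log2 values. For Scn4b these were the calcium and calmodulin dependent kinase Camk2b (0.313), Padi2 (0.335) and Mllt11 (0.349). Camk2b had means of 182, 191 and 221 normalized counts in WT_saline, WT_AAV and TG_saline and 740.3 in TG_AAV. For Scn4a they were the cytokine Il15 (0.167), the muscle fructose bisphosphatase Fbp2 (0.182) and the tropomodulin Tmod4 (0.195). Il15 had means of 379, 337, 291 and 133 in the 4 groups in the same order, and Tmod4 163, 166, 126 and 55.7. For Scn10a they were the dopamine receptor Drd2 (0.461), the monocarboxylate transporter Slc16a7 (0.640) and the ephrin receptor Ephb1 (0.657), and Drd2 had means of 31.8, 17.8, 22.5 and 4.69. Genes near to Scn7a included Tmod2 and Naalad2. The nearest genes of Scn3a were Smarca2, Entpd1 and Fmo1, those of Scn2b were Tnfrsf25, Timp4 and Fam46b, and those of Scn3b were Pde9a, Skap2 and Rfc4. Likeness was measured in the same libraries as the changes above and carries no test.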

How the data were processed

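RNA of 12 ventricle samples was sequenced and the titles gave each sample's group and number. The deposited table lists, by gene symbol, a signal: normalized counts, scaled by the authors with a size factor for each library. Bowtie2 2.0, DESeq2 and build mm9 are named per the submitters' processing notes, while their roles, the counter, the annotation and the strand setting were not given in the sources used here. The positive values of each column were whole multiples of a single step (100% within 0.01 of a whole read), so reads were recovered. A spreadsheet had turned 27 symbols into dates, and these genes stay unnamed.

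Values were tested as log2(normalized count + 1), which understates changes of genes with few reads, with limma 3.58.1 in R 4.3.3, a variance trend and a mean per group over all 12 libraries. Genes with a mean of 10 or more were tested (13030), with Benjamini-Hochberg adjustment over all of them and a threshold of 0.05. Single members also had an exact permutation test of mean log2 values. Count models on recovered reads used edgeR 4.0.16 and DESeq2 1.42.0. The fit was tested on simulated data. Lengths and shared 50-base stretches came from GENCODE M21 on GRCm38, another build than the authors', and promoters from RefSeq. From the lists, up to 4 genes past the threshold per direction were named in order of p, all tested genes of the sodium channel list were to be accounted for, and the 3 nearest genes were named for each member. Some genes these rules pick are not reported here. Members and lists were chosen with earlier results of these data known.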

Additional observations from a re-analysis of the deposited data

How the results depend on the processing

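Against the mean of the controls Scn4b, Scn4a and Scn10a kept their direction and their call under every alternative run in which they were tested. Their log2 changes ran from 1.72 to 2.24, -1.65 to -1.41 and -3.40 to -1.92. A filter at 50 removed Scn10a, Scn2b and Scn3b by construction, leaving 2 called. Members called in the interaction numbered 0 in the reported fit, 0 to 2 when a library was left out, 1 with DESeq2 and 1 with a term for Xist. Over all 13030 genes the same runs called 111, 39 to 192, 275 and 158. The term for Xist, the omission of WT_saline 3, WT_AAV 2 and WT_AAV 3, and that of libraries rich in Myl7 were chosen after seeing the data. The correlation of deviations was over 0.1 in 8 of 18 same-numbered pairs (median 0.0874) and in 8 of 36 differently numbered pairs (median -0.062). Same-numbered libraries were thus somewhat more alike. The titles do not say what the numbers stand for, and the reported fit held no term for them. With a replicate block 3 members were called in each comparison of TG_AAV with other groups and 0 in the others, as without it. Over all genes the block raised the number called against the controls from 2830 to 3096, and in the interaction from 111 to 156.

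Each change that turned sign belonged to a gene that had not passed in that comparison. With edgeR they were Scn2b against the controls (-0.0613), and Scn3b (0.111) and Scn4b (0.0679) for the vector alone. With DESeq2 they were the same 3 (-0.0707, 0.115 and 0.0699) and the Scn3a interaction (0.0125). Without the libraries rich in Myl7, WT_AAV 2 is alone in its group. The changes that turned there were Scn2b against the controls (-0.0424), and Scn4a (0.0992) and Scn4b (0.103) for the vector alone. Without WT_saline 3, WT_AAV 2 and WT_AAV 3 they were Scn3a against the controls (0.0308), Scn7a (-0.0902) and Scn3b (-0.295) against WT_AAV, Scn4a (0.326), Scn3b (0.305) and Scn4b (0.619) for the vector alone, Scn7a (0.0407) and Scn2b (0.606) for the transgene alone, and the Scn7a interaction (-0.131). A pseudocount of 5 gave Scn3b 0.0224 for the vector alone, upper quartile scaling gave it 4.78e-05, TMM scaling gave Scn7a 0.000858 for the transgene alone, and a pseudocount of 0.5 gave a Scn3a interaction of 1.68e-05. The cause was not tested.

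Leaving out a library in turn gave these ranges where a sign turned. Against the controls Scn3a ran from -0.0755 to 0.0356 and Scn2b from -0.12 to 0.33. Against TG_saline Scn2b ran from -0.0913 to 0.70. Against WT_AAV Scn7a ran from -0.053 to 0.15, Scn2b from -0.75 to 0.00116 and Scn3b from -0.29 to 0.48. For the vector alone Scn4a ran from -0.29 to 0.24, Scn2b from -0.0367 to 1.22, Scn3b from -0.26 to 0.50 and Scn4b from -0.60 to 0.44. For the transgene alone Scn10a ran from -0.70 to 0.10, Scn7a from -0.14 to 0.0583, Scn2b from -0.66 to 0.61, Scn3b from -0.46 to 0.14 and Scn4b from -0.34 to 0.00483. In the interaction Scn3a ran from -0.15 to 0.10, Scn7a from -0.0384 to 0.21, Scn2b from -0.92 to 0.34 and Scn3b from -0.14 to 0.68. Depth limits Scn10a, Scn2b and Scn3b, which held 262, 151 and 176 reads over the 12 libraries.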
